A study of Mus musculus with 6 samples.

Results

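Transcripts of 9 adhesion molecules of the immunoglobulin superfamily, Kirrel2, Kirrel3, Ncam1, Ncam2, L1cam, Nrcam, Chl1, Cntn4 and Cadm1, were counted in 6 olfactory sensory neurons, nerve cells of the nose that detect odours, each sequenced singly. The genes are a list taken by name from the 55341 genes of the deposited count table, and all 9 were found there. The genes were chosen by name for their part in axon adhesion and sorting, with their counts in these 6 neurons already known, so the levels are described and no test is attached to them. The neurons came from the olfactory epithelium of C57BL/6 mice aged 6 weeks, with no treatment or genetic change named in the labels. Each neuron was frozen by itself once physiological recordings were done, and gave 1 CEL-Seq2 library, a method that primes at the poly(A) tail and reads mainly the 3' end of each transcript. The libraries are called cells 1 to 6. The labels put them in 1 group and name no animals, so a difference between cells has no replicate check and its interval covers counting error only.

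Cell surface proteins with immunoglobulin domains bind partners on neighbouring cells or axons, often a copy of themselves. Olfactory axons that carry the same odorant receptor gather into shared glomeruli of the olfactory bulb. In the mouse, Kirrel2 and Kirrel3 are known to take part in this sorting, and receptor-driven activity is known to raise Kirrel2 and to lower Kirrel3. Ncam1 is a general neural adhesion molecule, and Ncam2, also called OCAM, marks axons of the ventral part of the epithelium. L1cam, Nrcam and Chl1 form the L1 family, which links the axon membrane to the ankyrin and spectrin skeleton. Cntn4, or BIG-2, is a contactin held on the membrane by a lipid anchor, and Cadm1, or SynCAM1, is a synaptic adhesion molecule.

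Library totals ran from 8613 to 122546 counts, with 8613, 34478, 122546, 60902, 22525 and 11725 in cells 1 to 6. Levels are given as CPM, counts scaled to a library total of 1e6, which makes 1 count equal to 116 CPM in the shallowest library and to 8.16 CPM in the deepest. Markers of mature olfactory neurons were abundant in each library, with 16204 to 30884 CPM for a list of 8 genes that includes Omp. None of 6 basal cell markers had a count in any cell. Markers of ensheathing glia, a cell type of the olfactory nerve also known for Ncam1 and L1cam, summed to between 0 and 87.0 CPM, with 4 of 8 genes found and Sox10, Frzb, Npy and Mybpc1 at 0 in each cell. Summed levels ran from 170.6 to 12610.4 CPM for red blood cell markers, from 85.3 to 34428 CPM for gland markers and from 0 to 754 CPM for sustentacular cell markers. Ranked by counts, the leading odorant receptor gene of cells 1 and 2 was Olfr740. That of cells 3 and 4 was Olfr741 and that of cells 5 and 6 was Olfr743, so the cells form 3 pairs that share a leading receptor.

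Ncam1, Kirrel2 and Cntn4 supplied most of the adhesion transcripts, and these 3 genes had a count in every cell. Chl1 had none in any cell. A count in every cell was found for 5.04% of the 16483 genes with any count, and for 7.92% of the 10484 genes with a pooled level of at least 10 CPM. Ncam1, Kirrel2 and Cntn4 had pooled levels of 1710, 1419 and 545 CPM, so these shares are not of genes at a like level. Median levels over the cells were 1859 CPM for Ncam1, 578 CPM for Cntn4, 573 CPM for Kirrel2, 196 CPM for Cadm1, 134 CPM for L1cam, 99.3 CPM for Ncam2, 47.3 CPM for Kirrel3 and 4.08 CPM for Nrcam. Without the shallow cells 1 and 6, the Kirrel2 median was 1009 CPM. CEL-Seq2 gives a transcript about the same number of counts whatever its length, so these levels were not divided by length. Expressed per kilobase of merged exons, the order was the same except that Kirrel2 (146 CPM per kilobase) came before Cntn4 (68.1 CPM per kilobase). The 9 genes together had 27, 114, 570, 182, 163 and 49 counts in cells 1 to 6. Their summed level was highest in cell 5 with 7236 CPM (95% Poisson interval 6168 to 8437) and lowest in cell 4 with 2988 CPM (2570.0 to 3456).

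**Figure D1:**
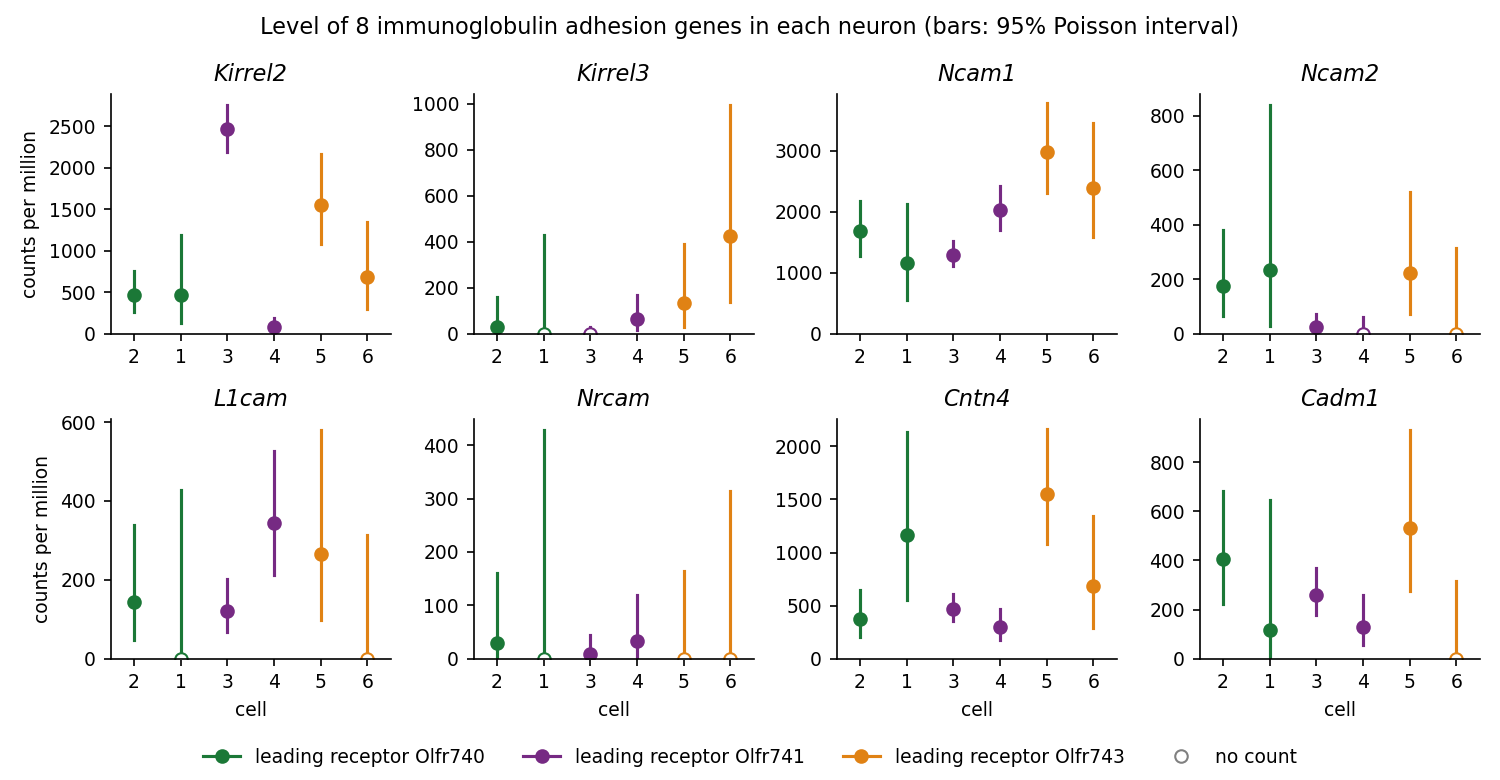
Level in CPM (y axis, from 0) of the 8 adhesion genes that had a count, in each of the 6 neurons (x axis, cells with the same leading receptor side by side); points are single cells, bars are 95% Poisson intervals, colours give the leading receptor and open points mark cells without a count. Kirrel2 reached 2464 CPM in cell 3 and 82.1 CPM in cell 4, while Ncam1 stayed between 1161 and 2974 CPM.

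Kirrel2 had the widest range among these 3 genes. Its level was 464 CPM in cell 1 (4 counts), 464 CPM in cell 2 (16 counts), 2464 CPM in cell 3 (302 counts), 82.1 CPM in cell 4 (5 counts), 1554 CPM in cell 5 (35 counts) and 682 CPM in cell 6 (8 counts). Cell 3 was highest, cell 4 was lowest, and cells 5, 6, 1 and 2 lay between them. In this order, cell 3 was 1.59-fold above cell 5 (95% interval of the ratio 1.12 to 2.32), cell 5 was 2.28-fold above cell 6 (1.04 to 5.68, and 0.985 to 5.39 when scaled without mitochondrial genes) and cell 2 was 5.65-fold above cell 4 (1.98 to 19.7). Cell 6 and cell 1 could not be told apart (ratio 1.47, 0.394 to 6.67), nor could cell 1 and cell 2 (0.243 to 3.10). Kirrel2 made up 53.0% of the 9 genes' counts in cell 3 (95% Clopper-Pearson interval 48.8% to 57.1%), against 2.75% in cell 4 (0.898% to 6.29%) and between 14.0% and 21.5% in the other 4 cells. Its coefficient of variation over cells was 0.934, where counting error alone, taken here and below at a gene's pooled level, would give 0.188. The pooled level of Kirrel2, 1419 CPM, is weighted by depth. It lies above the mean over cells of 952 CPM, at which counting error would be larger. The median coefficient over the 422 genes with at least 10 counts in at least 3 cells was 0.586, with 0.350 from counting alone. Of these genes, 58 varied more than Kirrel2. Kirrel2 lies on the minus strand of chromosome 7 (chr7:30447534-30457690 in GRCm38), is protein coding, has 13 merged exons and overlaps no other annotated gene.

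Kirrel3, the related adhesion molecule, was rare, and its counts lay in other cells than the Kirrel2 maximum. It had 0, 1, 0, 4, 3 and 5 counts in cells 1 to 6, or 0, 29.0, 0, 65.7, 133 and 426 CPM. Cell 6 was highest, and cell 3, the deepest library, was without a count. Cells 6 and 5, the highest for Kirrel3, had 682 and 1554 CPM of Kirrel2, above cells 1, 2 and 4. The Kirrel genes thus did not run opposite to each other in every cell. With no count, 3 counts or 24.5 CPM is the limit for cell 3, so Kirrel3 at its counted level was at least 17.4-fold higher in cell 6 than in cell 3 (exact lower limit of the ratio from both counts 9.58), a comparison chosen after the values were seen. The absence in cell 1 allows up to 348 CPM and says little. Of the counts of both Kirrel genes, Kirrel3 held 44.4% in cell 4 (4 of 9, interval 13.7% to 78.8%) and 38.5% in cell 6 (5 of 13, 13.9% to 68.4%). Its share was 0 of 302 in cell 3, which allows up to 1.21%, and 5.88% and 7.89% in cells 2 and 5 (1 of 17 and 3 of 38). Cells 4 and 6 also had the highest summed levels of immature neuron markers, with 3251 and 2985 CPM against 813 to 2220 CPM in the other 4 cells. These sums rest on 198 counts of 7 of 8 markers in cell 4, but on 35 counts of 4 of 8 in cell 6. Mature neuron markers summed to 16880 CPM in cell 4 and 25928 CPM in cell 6. The part of these markers in the Kirrel3 counts was not tested. Kirrel3 (chr9:34485894-35036716, plus strand) is overlapped in an intron by the antisense gene Kirrel3os, which had 1 count each in cells 2 and 4.

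**Figure D2:**
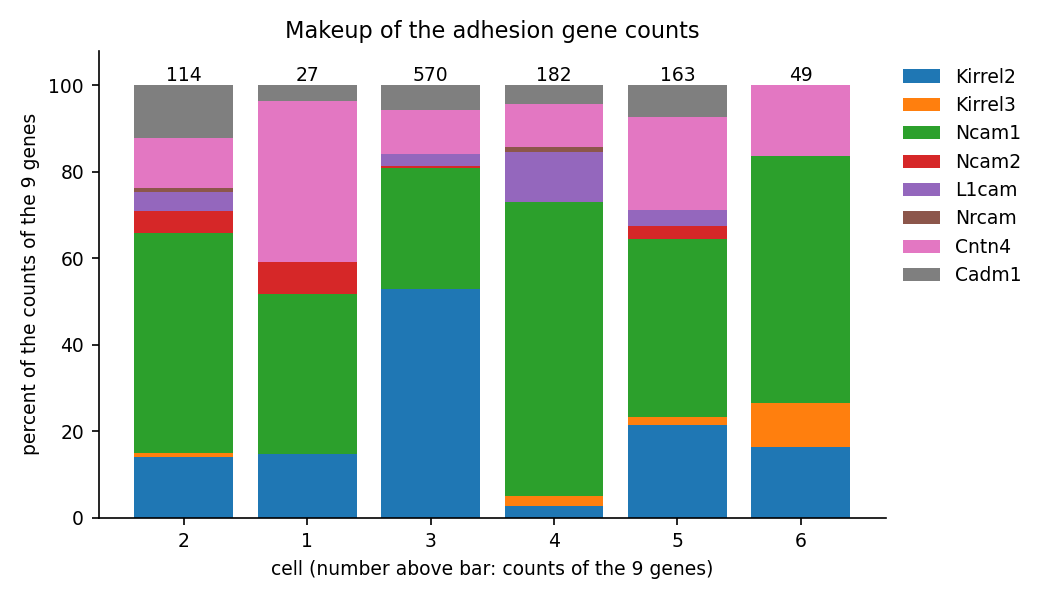
Share of each gene in the counts of the 9 adhesion genes (y axis, percent) in each neuron (x axis, cells with the same leading receptor side by side), where the number above a bar is the sum of counts it rests on. Kirrel2 takes 53.0% in cell 3 and 2.75% in cell 4, and Ncam1 takes between 27.9% and 68.1%.

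The genes beside Kirrel2 on chromosome 7 were examined after the values were seen, because Nphs1, in the list of other adhesion genes, is its neighbour. Nphs1 encodes nephrin, a binding partner of Kirrel proteins in the kidney. Its annotated span begins 624 bases from the Kirrel2 gene, and it is transcribed in the opposite direction (chr7:30458315-30487223, plus strand). A start-site window of Nphs1 from RefSeq lies further from Kirrel2 (chr7:30459808-30460107). Nphs1 had 0, 0, 24, 1, 3 and 2 counts in cells 1 to 6, or 0, 0, 196, 16.4, 133 and 171 CPM. Cells 3, 5 and 6, the 3 cells with the most Kirrel2, were also the 3 with the most Nphs1. The ratio of cell 3 to cell 4 was 11.9 for Nphs1 (95% interval 1.94 to 490.5) and 30.02 for Kirrel2 (12.7 to 93.1). Cells 1 and 2 had no Nphs1 count, which allows up to 348 and 87.0 CPM. Aplp1, which encodes an amyloid precursor-like protein and lies 1998 bases beyond the other end of Kirrel2 on the same strand, had 2032 CPM in cell 3 and 1888 CPM in cell 4, a ratio of 1.08 (0.859 to 1.35). The pseudogene Rps12-ps4 lies within Nphs1 on the other strand and had 0, 7, 15, 11, 1 and 1 counts, or 122 CPM in cell 3 and 181 CPM in cell 4 (ratio 0.678, 0.291 to 1.63). The antisense gene Nphs1os had none.

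**Figure D3:**
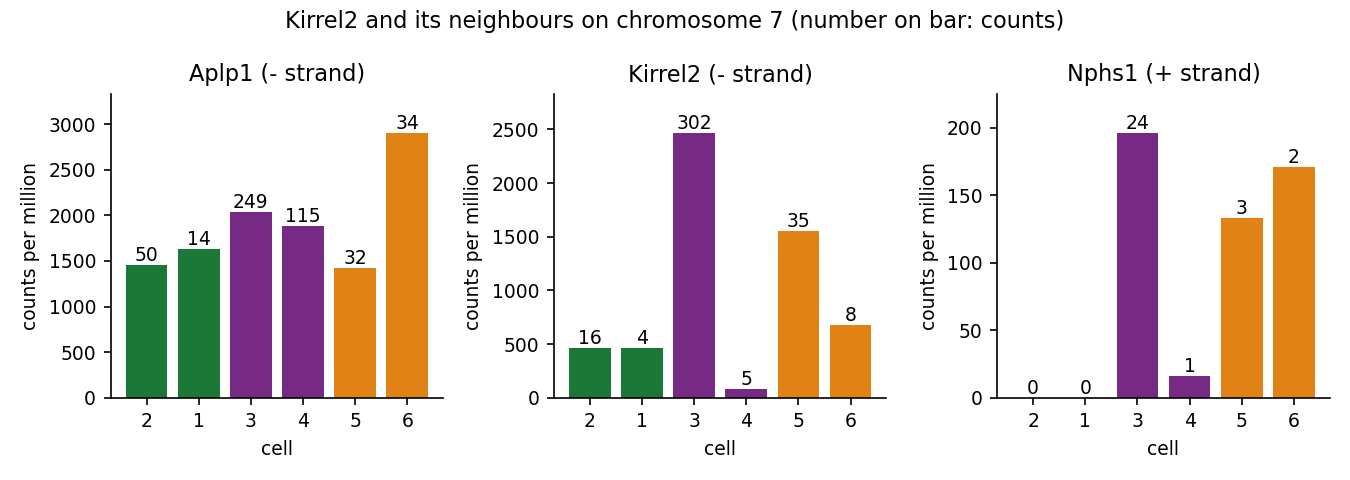
Level in CPM (y axes, each from 0) of Aplp1, Kirrel2 and Nphs1, which lie next to each other on chromosome 7, in each neuron (x axis, cells with the same leading receptor side by side); numbers on the bars are counts and colours give the leading receptor, green for Olfr740, purple for Olfr741 and orange for Olfr743. Kirrel2 and Nphs1 are higher in cell 3 than in cell 4, while Aplp1 has 2032 CPM in cell 3 and 1888 CPM in cell 4.

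Start-site sequences from RefSeq (GRCm38.p6), each with 250 bases before and 50 after the annotated start, were at hand for 6 of the 9 genes: Kirrel2, Cntn4, Chl1, L1cam, Nrcam and Ncam2. They are shown for Kirrel2, the gene that varied most among those counted in every cell, for Cntn4, a gene with counts in every cell, and for Chl1, which had none. Capitals mark a stretch that occurs 2 times in the Kirrel2 window and motif matches in the other windows. Each is printed 5' to 3' along the gene's own strand.
Kirrel2 (chr7:30457466-30457765, minus strand): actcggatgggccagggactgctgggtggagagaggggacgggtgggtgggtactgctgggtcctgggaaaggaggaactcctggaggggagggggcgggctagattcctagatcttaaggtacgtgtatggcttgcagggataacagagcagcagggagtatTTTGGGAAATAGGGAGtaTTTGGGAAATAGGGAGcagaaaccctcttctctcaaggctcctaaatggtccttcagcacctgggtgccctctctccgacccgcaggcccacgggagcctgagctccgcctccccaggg
Cntn4 (chr6:106118692-106118991, plus strand): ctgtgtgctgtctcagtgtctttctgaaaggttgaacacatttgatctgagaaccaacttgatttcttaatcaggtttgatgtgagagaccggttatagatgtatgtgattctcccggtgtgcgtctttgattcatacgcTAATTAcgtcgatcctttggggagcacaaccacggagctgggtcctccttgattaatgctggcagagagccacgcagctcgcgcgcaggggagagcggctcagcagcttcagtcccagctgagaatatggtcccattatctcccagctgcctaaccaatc
Chl1 (chr6:103510626-103510925, plus strand): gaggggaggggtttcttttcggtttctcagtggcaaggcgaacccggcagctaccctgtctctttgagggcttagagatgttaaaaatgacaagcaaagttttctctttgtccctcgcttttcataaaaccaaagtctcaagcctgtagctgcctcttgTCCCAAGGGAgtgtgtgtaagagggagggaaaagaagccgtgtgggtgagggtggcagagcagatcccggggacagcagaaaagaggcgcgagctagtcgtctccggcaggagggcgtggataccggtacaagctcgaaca
The Kirrel2 window held a direct repeat of 16 bases, TTTGGGAAATAGGGAG, and 2.40% of all 32851 windows held a repeat at least that long. Both strands were searched for the palindromic core motif of the Ebf (Olf-1) factors of olfactory neurons, which the capitals in the Chl1 window show, for the homeodomain core TAATTA, for the cyclic AMP response element TGACGTCA and for the TATA box core TATAAA. These motifs, in that order, occur in 0.904%, 5.29%, 1.79% and 13.6% of all windows. Kirrel2 had none of them. Cntn4 had 1 match to TAATTA, which starts 110 bases before the annotated start, and Chl1 had 1 match to the Ebf motif, which starts 91 bases before it. The Cntn4 start shown lies within the gene's annotated span, and so do the starts of Kirrel2, Chl1 and L1cam within theirs. The other Cntn4 start site in the table, and those of L1cam, Nrcam and Ncam2, had no match. The number of CG dinucleotides was 8 in the Kirrel2 window, 12 and 4 in the Cntn4 windows and 13 in the Chl1 window. It was 25 and 22 in the L1cam windows, 37 in the Nrcam window and 41 in the Ncam2 window, against a median of 7 over all windows.

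Ncam1 was the steadiest of the 4 well-counted genes. Its level was 1161 CPM in cell 1 (10 counts), 1682 CPM in cell 2 (58 counts), 1297 CPM in cell 3 (159 counts), 2036 CPM in cell 4 (124 counts), 2974 CPM in cell 5 (67 counts) and 2388 CPM in cell 6 (28 counts). Cells 5 and 6 were highest and cells 1 and 3 lowest. In CPM, no neighbours in this order were separated by more than counting error. The highest cell was 2.56-fold above the lowest (1.31 to 5.59), and the coefficient of variation was 0.358 with 0.171 from counting alone. Ncam1 lies on the minus strand (chr9:49502136-49798925), and Gm11149, which overlaps one of its exons on the other strand, had no count.

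Ncam2 was far less counted than Ncam1 in each cell. It had 2, 6, 3, 0, 5 and 0 counts in cells 1 to 6, or 232, 174, 24.5, 0, 222 and 0 CPM. Cells 2 and 5 were high, cells 3 and 4, the deepest libraries, were low, and the 2 counts of cell 1 allow 28.1 to 839 CPM. Cell 2 was 7.11-fold above cell 3 (interval 1.52 to 43.9). A limit of 3 counts is 49.3 CPM in cell 4 and 256 CPM in cell 6. Ncam2 held 16.7% of the counts of both Ncam genes in cell 1 (2 of 12, interval 2.09% to 48.4%) and 9.38% in cell 2 (6 of 64, 3.52% to 19.3%). Its share was 6.94% in cell 5 (5 of 72, 2.29% to 15.5%) and 1.85% in cell 3 (3 of 162, 0.384% to 5.32%). It was 0 of 124 in cell 4, which allows up to 2.93%. The gene lies on the plus strand of chromosome 16 (chr16:81200697-81626828).

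Of the L1 family, L1cam was counted in 4 cells, Nrcam hardly at all and Chl1 nowhere. L1cam had 0, 5, 15, 21, 6 and 0 counts in cells 1 to 6, or 0, 145, 122, 345, 266 and 0 CPM. Cell 4 was highest, and the absences in cells 1 and 6 allow up to 348 and 256 CPM, so a level like that of cells 2 and 3 is not excluded there. Nrcam had 1, 1 and 2 counts in cells 2, 3 and 4 and none elsewhere, a pooled level of 15.3 CPM (4.18 to 39.3). Chl1 had 0 of 260789 counts, which allows a pooled level of up to 11.5 CPM at 3 counts. Within an intron of Chl1 (chr6:103510586-103750211) lies Gm44439, an unverified transcript on the same strand, which had 9 counts in cell 3 and none in the other cells. L1cam lies on chromosome X (chrX:73853778-73896105, minus strand) and is overlapped in an exon by Arhgap4, which had no count. Nrcam lies on chromosome 12 (chr12:44328885-44601964, plus strand). Within introns of Nrcam, on the same strand, Gm48181 had 2 counts in cell 3 and Gm48182 had 3 counts in cell 3 and 1 in cell 4.

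Cntn4 and Cadm1 were both highest in cell 5. Cntn4 had 1161, 377, 473, 296, 1554 and 682 CPM in cells 1 to 6, from 10, 13, 58, 18, 35 and 8 counts. Its level in cell 5 was 5.26-fold above that in cell 4 (2.90 to 9.86), and in CPM no neighbours in the order of cells were separated by more than counting error. Cells 1, 5 and 6, the 3 shallowest libraries, had the highest values, and the part of depth in this was not tested. Without cells 1 and 6, cell 5 still had 1554 CPM against 296 to 473 CPM in cells 2, 3 and 4. Cadm1 had 1, 14, 32, 8, 12 and 0 counts in cells 1 to 6, or 116, 406, 261, 131, 533 and 0 CPM. Cells 5 and 2 were high, and cell 5 was 4.06-fold above cell 4 (1.52 to 11.4), a comparison chosen after the values were seen. The absence in cell 6 allows up to 256 CPM, so Cadm1 at its counted level was at least 2.08-fold higher in cell 5 than in cell 6 (exact lower limit of the ratio from both counts 1.45). The coefficients of variation of Cntn4 and Cadm1 were 0.658 and 0.826, with 0.303 and 0.441 from counting alone. Cntn4 spans 1021651 bases on the plus strand (chr6:105677660-106699310) and overlaps no other annotated gene. Cadm1 lies on chromosome 9 (chr9:47530173-47857637, plus strand), and the genes that overlap it had no count.

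**Figure D4:**
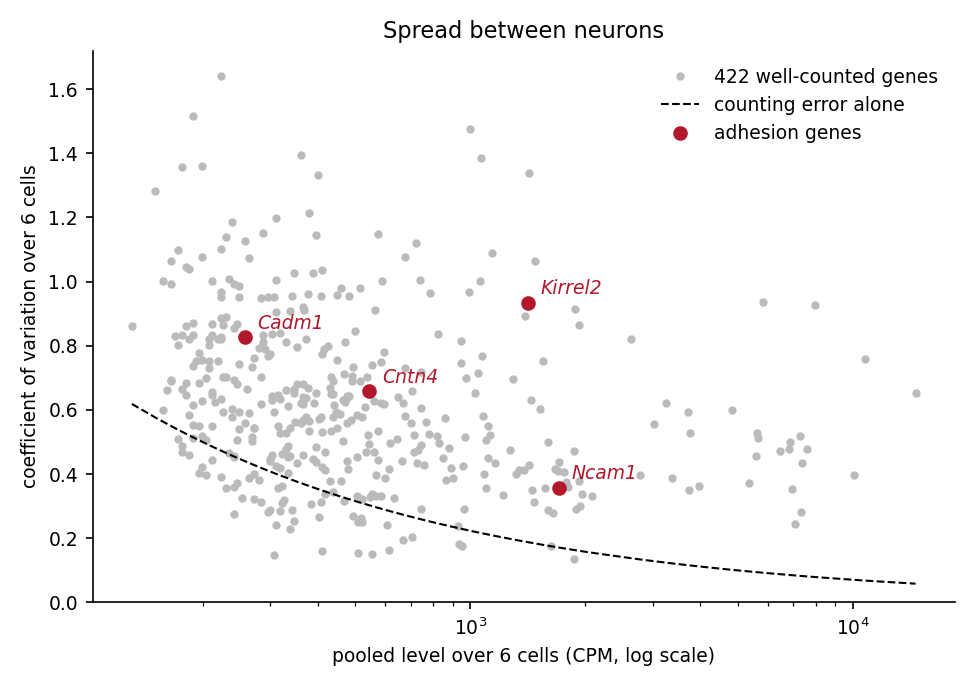
Coefficient of variation over the 6 neurons (y axis, from 0) against the pooled level in CPM (x axis, log scale) for the 422 genes with at least 10 counts in at least 3 cells (grey), with the 4 adhesion genes among them in red; the dashed line is the value that counting error alone would give. Kirrel2 lies at 0.934, Cadm1 at 0.826, Cntn4 at 0.658 and Ncam1 at 0.358.

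Cells with the same leading receptor were then set beside each other, which asks how far adhesion transcripts differ between neurons that share a receptor. Each pair was given as the deeper cell over the other, and a gene was called apart at a ratio of at least 4 in either direction if it had at least 10 counts in one cell of the pair. With 1 cell on each side there is no test, and the pair of cells 3 and 4 was known beforehand to differ in Kirrel2. In the Olfr740 pair, 0 of the 4 adhesion genes counted well enough were apart, where 5.49% of 419 genes were. Kirrel2 had 464 CPM in both cell 2 and cell 1, with a wide interval (ratio 0.999, 0.322 to 4.11). Cntn4 had 377 CPM in cell 2 and 1161 CPM in cell 1 (ratio 0.325, 0.132 to 0.827), but with median-of-ratios size factors the interval held 1 (0.184 to 1.155). Ncam1 had a ratio of 1.45 (0.734 to 3.18, and 2.02, 1.02 to 4.44, with median-of-ratios size factors), and Cadm1 one of 3.50 (0.532 to 148). Gland markers summed to 34428 CPM in cell 2 and 7082 CPM in cell 1, and mature neuron markers to 17402 and 30884 CPM in these cells, and their part in the ratios was not tested.

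In the Olfr741 pair, 1 of 5 well-counted adhesion genes was apart, against 20.4% of 3316 genes. This gene was Kirrel2, with 2464 CPM in cell 3 and 82.1 CPM in cell 4. The other well-counted members were closer. Ncam1 had 1297 CPM in cell 3 and 2036 CPM in cell 4 (ratio 0.637, 0.501 to 0.813), and L1cam had 122 and 345 CPM in cells 3 and 4 (0.355, 0.170 to 0.722). Cntn4 and Cadm1 had ratios of 1.60 (0.930 to 2.89) and 1.99 (0.897 to 4.99). Among members too rare to be called, Kirrel3 had 0 counts in cell 3 and 4 in cell 4 (exact upper limit of the ratio 0.753). Nrcam had 1 and 2 counts in these cells, and Ncam2 had 3 and 0. The sum of the 9 genes was 1.56-fold higher in cell 3 (1.31 to 1.85), but without Kirrel2 it was lower there, with 2187 CPM in cell 3 and 2906 CPM in cell 4 (ratio 0.752, 0.620 to 0.915). Other markers differed within this pair too. Mature neuron markers summed to 30234 CPM in cell 3 and 16880 CPM in cell 4, immature neuron markers to 1109.8 and 3251 CPM, red blood cell markers to 4080.1 and 12610.4 CPM, and ensheathing glia markers to 57.1 and 65.7 CPM. Their part in the adhesion gene differences was not tested.

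In the Olfr743 pair, 0 of 4 well-counted adhesion genes were apart, against 27.4% of 376 genes. Kirrel2 and Cntn4 had the same counts as each other in these cells, 35 in cell 5 and 8 in cell 6, and both had a ratio of 2.28 (1.04 to 5.68), whose interval held 1 when scaled without mitochondrial genes (0.985 to 5.39) or to protein-coding counts (0.927 to 5.08). Ncam1 had 2974 CPM in cell 5 and 2388 CPM in cell 6 (ratio 1.25, 0.790 to 2.01, and 1.65, 1.05 to 2.67, with median-of-ratios size factors). Cadm1 had 12 counts in cell 5 and 0 in cell 6. With the 0 set to 3 counts its ratio had a bound of 2.08 (exact lower limit 1.45). A ratio of 4 or more is thus not excluded for Cadm1, although it was not called apart. Kirrel3, with 3 counts in cell 5 and 5 in cell 6, had a ratio of 0.312 (0.0485 to 1.61). Gland markers summed to 5416 CPM in cell 5 and 85.3 CPM in cell 6, and mature neuron markers to 16204 and 25928 CPM in these cells, and their part in the ratios was not tested. The shares of adhesion genes apart in the 3 pairs rest on 4 or 5 genes each and cannot be told from those of all genes.

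**Figure D5:**
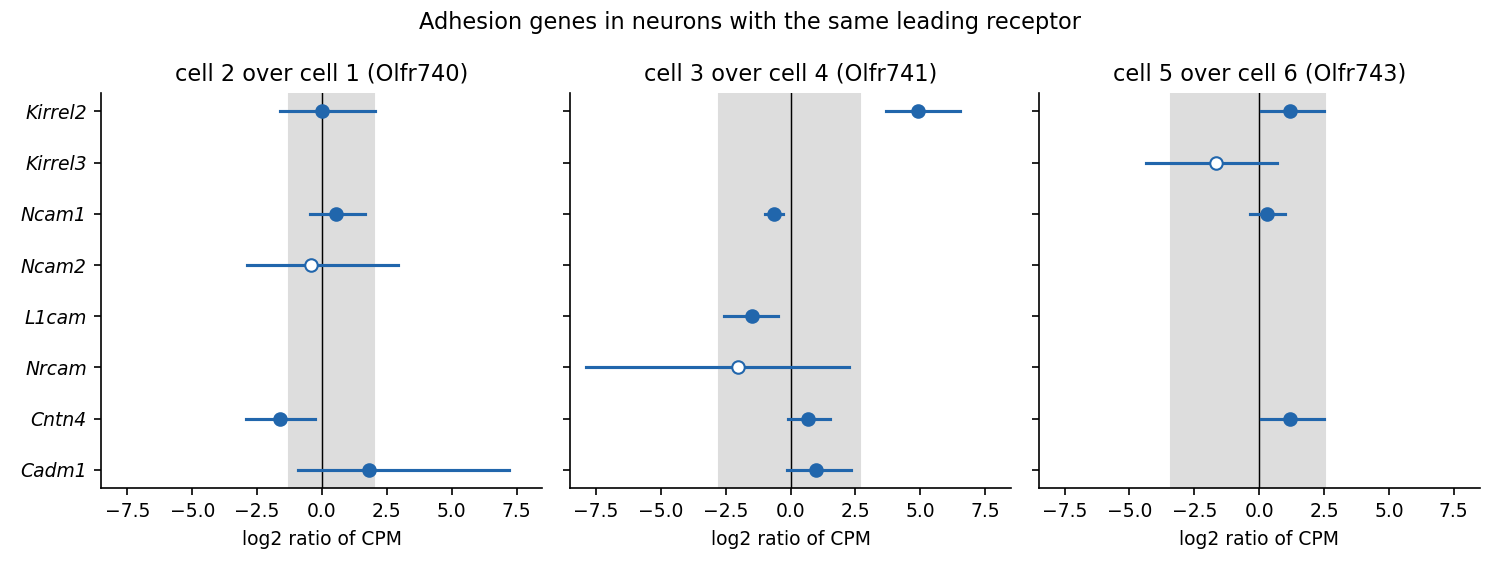
Log2 ratio of CPM (x axis) of the adhesion genes with a count in both cells of a pair, in the 3 pairs of neurons with the same leading receptor; bars are exact 95% intervals from counting error, filled points are genes with at least 10 counts in one cell of the pair, and grey bands hold the middle 90% of all genes counted as well. Kirrel2 lies at 4.91 for cell 3 over cell 4, outside the band, close to 0 for cell 2 over cell 1 and at 1.19 for cell 5 over cell 6.

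Of 43 other immunoglobulin adhesion genes in 7 families, 28 had a count in some cell, where 29.8% of all genes did. Of these 28 genes, 3 had a count in every cell, where 5.04% of the 16483 genes with any count did. Igsf8 and Ptprs had the highest medians. Igsf8, a membrane protein that associates with tetraspanins, had a median of 939 CPM (426 in cell 6 to 1624 in cell 3). Ptprs, a receptor tyrosine phosphatase with immunoglobulin domains, had a median of 700.0 CPM (174 in cell 2 to 1194 in cell 6). Most other relatives of the members had few counts, apart from Nphs1, with 30 over all cells. Kirrel, the third gene of the Kirrel family, had no count. Nfasc, the remaining L1 family gene, had 8 counts over all cells, and the other 5 contactins had 6 counts together, 3 of them from Cntn1. Cadm3 had 17 counts over all cells, against 67 for Cadm1, and Cadm2 and Cadm4 had none. Of the Dscam and sidekick genes, Sdk1 and Dscaml1 had 21 and 19 counts, and the IgLON family had 4 counts. In cell 3 over cell 4, 2 of the 9 well-counted genes of these families were at least 4-fold higher, Nphs1 and Dscaml1. Dscaml1 had 16 and 1 counts in these cells (ratio 7.95, 1.24 to 333). None of the 9 was at least 4-fold lower, where 11.7% and 8.72% of all genes were higher and lower. Nphs1 and Dscaml1 were well counted only through cell 3, the deeper library. The count limit favours genes high there, so the lack of lower genes says little. The shares over all genes passed the same limit.

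Genes known to follow receptor activity or to sort olfactory axons were set beside Kirrel2, from a list of 14. In cell 3 over cell 4, 5 of the 10 well-counted genes were at least 4-fold higher and 0 lower, where 11.7% and 8.72% of all genes were, with a median log2 ratio of 1.84, against 0.29 over all genes. Epha5, an axon guidance receptor, had 408 CPM in cell 3 and 32.8 CPM in cell 4 (ratio 12.4, 3.26 to 105). Adcy3, the adenylyl cyclase of odour transduction, had a ratio of 15.1 (6.33 to 47.2), and Pcp4l1, a small protein related to the calmodulin regulator Pcp4, one of 7.54 (5.35 to 10.9). The others were Nrp2, a semaphorin receptor, and Efna5, an ephrin ligand of Eph receptors, with ratios of 5.14 (1.60 to 26.3) and 5.96 (0.882 to 254.9). Of these 5 genes, only Pcp4l1 had at least 10 counts in cell 4 too (35 counts). The rest were well counted only through cell 3, the deeper library, so this limit favours genes high there. The shares over all genes passed the same limit. Epha5, Adcy3, Nrp2 and Efna5 were named after their values were seen, and Adcy3, Gnal and Cnga2 also stand in the list of mature neuron markers. Gnal, the olfactory G protein subunit, ran from 1276 to 2131 CPM over the cells. S100a5, a calcium-binding protein, ran from 4992 to 9126 CPM and Cnga2, a subunit of the transduction channel, from 0 to 929 CPM. Their ratios of cell 3 to cell 4 were 1.66 (1.46 to 1.89) for S100a5 and 2.48 (1.49 to 4.38) for Cnga2, and that of Gnal was 1.13 (0.879 to 1.46). In cell 5 over cell 6, 1 of 6 well-counted genes of the list was at least 4-fold higher, where 10.1% of all genes were. In cell 2 over cell 1 it was 0 of 5, where 4.30% were. The list was not split by whether activity is known to raise or to lower a gene. The genes were listed with the Kirrel2 difference known, so the list is not independent evidence of the direction of that difference.

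The genes whose pattern over the 6 cells was most like that of a member were taken by Pearson's r of log2(CPM + 10) among the 422 well-counted genes, as a description without a test. For Kirrel2 they included Slc22a17 (r = 0.92) and Ddx5 (0.88). For Ncam1 they were H3f3b (0.97), Fgf12 (0.95) and Prnp (0.92). For Cntn4 they were App (0.97), Tardbp (0.88) and Ywhaz (0.86), and for Cadm1 Tcf4 (0.99), Hnrnpu (0.98) and Gm12346 (0.97). With 6 points and so many genes such values are common: the highest r of a gene with any other had a median of 0.97. The 3 genes nearest to Cadm1 shared its count of 0 in cell 6. Between the 4 well-counted members, r ran from -0.12 for Ncam1 with Cadm1 to 0.50 for Kirrel2 with Cntn4. Cells share their library and depth in each of these values, and r with the log2 library total was 0.09 for Kirrel2, -0.13 for Ncam1, -0.65 for Cntn4 and 0.46 for Cadm1.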

How the data were processed

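RNA of 6 single neurons was measured by CEL-Seq2. The values are raw counts per gene symbol, as the authors deposited them, in 6 columns matched to the samples by title. Per the submitters' processing notes, CASAVA, Bowtie2 2.3.4, HTSeq and the build mm10 were used. Per the labels, only read 2 was aligned, and libraries carried unique molecular identifiers. The submitters' sources used here give neither the annotation nor the strand setting, nor say if identifiers were collapsed, so a count may be a molecule or a read, and sense and antisense genes cannot be told apart.

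All 55341 symbols matched GENCODE M21 (GRCm38, the assembly of mm10), which gave positions (1-based). CPM used the total over all genes. Counts, ratios and shares have exact 95% Poisson, conditional binomial and Clopper-Pearson intervals, which cover counting error only and are too narrow if the counts are reads of repeatedly copied molecules. A count of 0 was set to 3 counts for limits and bounds. With 1 cell per side no p-value was computed. The fold and pattern steps were checked on simulated counts. Alternatives were 4 scalings, other count and fold limits, thinning to 8613 counts (20 draws), other pseudocounts and each cell left out.

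Named genes are the 9 members, the 3 genes most like each well-counted member, the 2 of highest median CPM above 0 per related family and the 4 per list of partners and activity genes; 1 gene this rule names is not reported here. The members and lists were chosen with earlier results of these data known. Python 3.11.15, numpy 2.4.6, pandas 2.3.3 and scipy 1.17.1 were used.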

Additional observations from a re-analysis of the deposited data

Results flagged for a closer look

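Kirrel3 was highest in cell 6, with 426 CPM (5 counts, 95% Poisson interval 138 to 995), and next in cell 5, with 133 CPM (27.5 to 389). The gap between these cells, 0.688 of the whole range, passed Dixon's limit for 6 samples, used here to pick values for a second look and not as a test. It takes the 0 of cell 1 at face value, although a 0 there allows up to 348 CPM. Chance passes this limit in about 1 group in 20 for a single set of normally spread values. The Kirrel3 levels rest on few counts at unequal depths, and every counted member was screened at both ends, so that rate does not apply here. By their counts cells 6 and 5 were not separated (ratio 3.202, 0.623 to 20.6).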

How the results depend on the processing

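Under 4 other scalings, the Kirrel2 ratio of cell 3 to cell 4 stayed between 4.84 and 4.94 on the log2 scale (4.91 as reported). The exact intervals of the ratios were recomputed under these scalings, a step chosen after the data were seen. Among the members, the separations that ended were Cntn4 in cell 2 over cell 1 (0.453, 0.184 to 1.155, median-of-ratios), Kirrel2 and Cntn4 in cell 5 over cell 6 (2.16, 0.985 to 5.39, without mitochondrial genes, and 2.03, 0.927 to 5.08, protein-coding counts) and L1cam in cell 4 over cell 6. Those gained were Ncam1 in cell 2 over cell 1 and in cell 5 over cell 6 (2.02 and 1.65, median-of-ratios) and in cell 2 over cell 3 (1.38, protein-coding counts). The summed log2 ratio of cell 3 to cell 4 (0.64) became -0.41 without Kirrel2, a step chosen after the data were seen, because 302 of the 570 counts in cell 3 were Kirrel2. The number of the 9 genes with a count in every cell (3) was 1 at a minimum of 10 counts, and 5 without cells 1 and 6, chosen after the data were seen. Leaving out each cell in turn gave 3 to 4, and equal depth gave a median of 2.5. With a fold of 2, 2 of the 4 well-counted members were apart in cells 2 and 1, where 142 of 419 genes were. In cells 3 and 4 it was 2 of 5, where 1667 of 3316 genes were apart. In cells 5 and 6 it was 3 of 4, where 222 of 376 genes were apart. With a minimum of 20 counts, 284 of all genes were apart in cells 3 and 4 (678 at the minimum of 10) and 28 in cells 5 and 6 (103 at the minimum of 10). With a minimum of 1 count, 2 of the 9 were apart in cells 2 and 1 and 2 of the 9 in cells 3 and 4. Of all genes, 5569, 3573 and 2848 were then apart in the 3 pairs, since a 0 set to 3 counts in a shallow cell passes by itself. How many genes meet the minimums of 20 and 1 counts is not given here, so these counts have no shares. Leaving out each cell in turn, r of Kirrel2 with Slc22a17 ran from 0.74 to 0.99 and was lowest without cell 4. No paired analysis was possible because the cells form a single group. Depth limits the low members most: in cells 1 and 6 a gene under 348 and 256 CPM may give no count.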

Other observations

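Partners of these adhesion molecules inside and outside the cell, a list of 15 genes, had counts of 12 members, with 5 found in every cell and a summed level of 2755 to 4760.3 CPM. Over all genes, 29.8% had a count in some cell, and 5.04% of those with a count had one in every cell. Aplp1 led with a median of 1757 CPM (1421 in cell 5 to 2899.8 in cell 6). App, the amyloid precursor protein and a known binding partner of contactin-4, had 659 CPM (378 in cell 4 to 1065 in cell 5). Ank3, the ankyrin that anchors the L1 family at the axon's initial segment, had 446 CPM (171 in cell 6 to 844 in cell 5), and Sptbn1, a spectrin, had 268 CPM. St8sia2 and St8sia4, the enzymes that attach polysialic acid to Ncam1 and were named after their values were seen, had no count in any cell.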
